A study of Rattus norvegicus with 72 samples.

Results

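The circadian clock genes described here were Per1, Per2, Per3, Cry1, Cry2, Nr1d1, Nr1d2, Dbp, Tef and Clock, measured in primary rat hepatocytes exposed to carcinogens and non-carcinogens. They were chosen by gene symbol in the platform annotation, which gave 20 probe sets, of 31099 on the array, for 10 genes, of 14217 with a symbol of their own. A probe set is a group of short array sequences that report 1 transcript. Of the 20 probe sets, 17 passed the filter on low values and were tested, and each of the 10 genes had at least 1 among them.

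Hepatocytes are the main cell type of the liver, here freshly isolated and kept as a monolayer in William's E medium, with serum at plating and serum-free medium with hydrocortisone hemisuccinate and insulin after that. The 72 arrays, 1 RNA sample each, formed 24 groups of 3: cells exposed to 8 compounds and 4 control groups, each at 24 h and 72 h of exposure. The genotoxic carcinogens were aflatoxin B1 at 19 nM, the tobacco nitrosamine 4-(methylnitrosamino)-1-(3-pyridyl)-1-butanone (NNK) at 625 µM and 2-nitrofluorene at 78 µM. The non-genotoxic carcinogens were Wy-14643, an agonist of the nuclear receptor PPARα, at 250 µM, the pesticide synergist piperonyl butoxide at 13.4 µM and the antihistamine methapyrilene hydrochloride at 8.5 µM. The non-carcinogens were the calcium channel blocker nifedipine at 156 µM and the adrenergic agonist clonidine hydrochloride at 277 µM. Each compound had 1 dose. 1 control served Wy-14643, aflatoxin B1 and clonidine (the Wy-14643 set below), 2-nitrofluorene, piperonyl butoxide and nifedipine shared another (the 2-nitrofluorene set), and NNK and methapyrilene each had their own. The labels used here do not state the rats' strain, age and sex or the controls' vehicle. All groups shared the medium, hormones included, and nothing in the labels gives the time of day of plating, exposure or harvest.

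The clock is a feedback loop of transcription. CLOCK and BMAL1 form a pair that binds E-box sequences and switches on the Period (Per) and Cryptochrome (Cry) genes, whose proteins in turn repress that pair. The nuclear receptors NR1D1 and NR1D2 (REV-ERBα and REV-ERBβ) repress Bmal1 through sites with the core AGGTCA, and DBP and TEF, which belong to the PAR bZIP family, activate genes through D-box sequences. In liver these factors put many metabolic genes under daily rhythm, and glucocorticoids are known to induce Per1.

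The promoters were searched for the letters of these elements. The 250 bases before the RefSeq start (build GRCr8) were available as 11 windows for 9 of the 10 genes, with no entry for Cry1. Both strands were searched for the E-box CACGTG, the D-box forms TTATGTAA and TTACGTAA, the receptor core AGGTCA and the cAMP element TGACGTCA. The E-box was found in 2 of the 11 windows and in 5.59% of 33469 promoters, the D-box in 1 and in 0.932%, the receptor core in 1 and in 14.1%, and the cAMP element in 0 and in 1.59%. The matches are printed 5′ to 3′ on the gene's strand, with the motif in capitals, to show which members hold these letters. The first base of the motif lies 198 bases before the start of Tef (chr7:115206589-115206674, plus strand), 192 before that of Per2 (chr9:99497138-99497225, minus strand), 191 before that of Nr1d1 (chr10:84229600-84229685, minus strand) and 187 before that of Nr1d2 (chr15:9954807-9954892, plus strand).
Tef, E-box: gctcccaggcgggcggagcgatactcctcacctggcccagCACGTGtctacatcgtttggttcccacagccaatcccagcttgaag
Per2, D-box: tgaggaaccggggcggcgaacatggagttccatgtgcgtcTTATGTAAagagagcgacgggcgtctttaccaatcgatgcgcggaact
Nr1d1, E-box: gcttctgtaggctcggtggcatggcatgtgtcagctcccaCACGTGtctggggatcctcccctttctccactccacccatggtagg
Nr1d2, receptor core: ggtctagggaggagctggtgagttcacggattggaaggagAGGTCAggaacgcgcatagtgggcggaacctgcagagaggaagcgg
A match describes these letters only, and binding was not measured.

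The arrays had median intensities of 15.8 to 23.8, and 7 of the 8 listed hepatocyte markers were measured, with group means of 3946 to 7231 for albumin. Features of single arrays bear on the clock genes and stand before the results. On the first count, 10 arrays had a ratio of 3′ over 5′ actin signal, a sign of RNA quality, of 1.84 to 2.71 on the log2 scale, against 0.36 to 1.11 on the other 62. They were the 8 arrays of D number 3, a number in the sample titles whose meaning the labels do not state and which occurs only in the Wy-14643 set, and replicate 1 of aflatoxin B1 at 24 h and replicate 2 at 72 h. Some clock probe sets followed that ratio. On the 10 arrays the intensity of Cry2 (1369446_at) was 1.09 to 8.43, against 7.11 to 57.0 on the other 62. Nr1d2 (1370540_at) was at 0.27 to 7.24 against 10.2 to 39.1, and Clock (1380098_at) at 1.70 to 41.0 against 41.5 to 102. Other probe sets of the same 3 genes overlapped between these arrays, some with shifted medians. Nr1d2 (1370541_at) had a median of 68.5 on the 10 arrays against 111 on the others, and Nr1d2 (1390430_at) 117 against 111. Cry2 (1372548_at) had 103 against 89.0, Clock (1390199_at) 262 against 209 and Clock (1389456_at) 48.1 against 49.6. The median of Per1 was 129 against 86.2.

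On the second count, the D number 3 arrays changed with time against the direction of D numbers 1 and 2 of their set for many clock genes, so the fitted changes of named genes that rest on them are also given without them. The median difference between 72 h and 24 h had opposite signs in the 2 kinds of pair for 15 of 17 member probe sets, beside 67.6% of all probe sets. In the Wy-14643 set, Cry1 was lower at 72 h than at 24 h in 7 of 8 pairs of D numbers 1 and 2 (median difference −0.47, log2 scale) and higher in 4 of 4 pairs of D number 3 (0.70). Per2 was higher at 72 h in 1 of 8 pairs (median −0.54) against 4 of 4 (0.64). Dbp was higher at 72 h in 7 of 8 pairs (1.20) against 1 of 4 (−0.32), and Per3 in 6 of 8 (1.11) against 1 of 4 (−0.50). The probe sets Clock 1380098_at (−0.26 and −0.99) and Cry2 1369446_at (−0.40 and −0.33) had the same sign in both. Outside the clock members, Bmal1 was higher at 72 h in 0 of 8 pairs (−0.92) against 4 of 4 (0.41). In the other 3 sets Cry1 was higher at 72 h in 3 of 24 pairs (−0.38), Per2 in 5 (−0.21), Dbp in 13 (0.04), Per3 in 16 (0.27) and Bmal1 in 2 (−0.46). The labels were kept as given, and whether the D number 3 arrays carry the time they are labelled with was not tested. Each array pair shares a D number, and the pairs of a set share their control cultures' experiment. The 2-nitrofluorene and NNK sets also carry the same D numbers, 7, 8 and 9. The pairs are thus not independent, and these counts are a description.

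**Figure D1:**
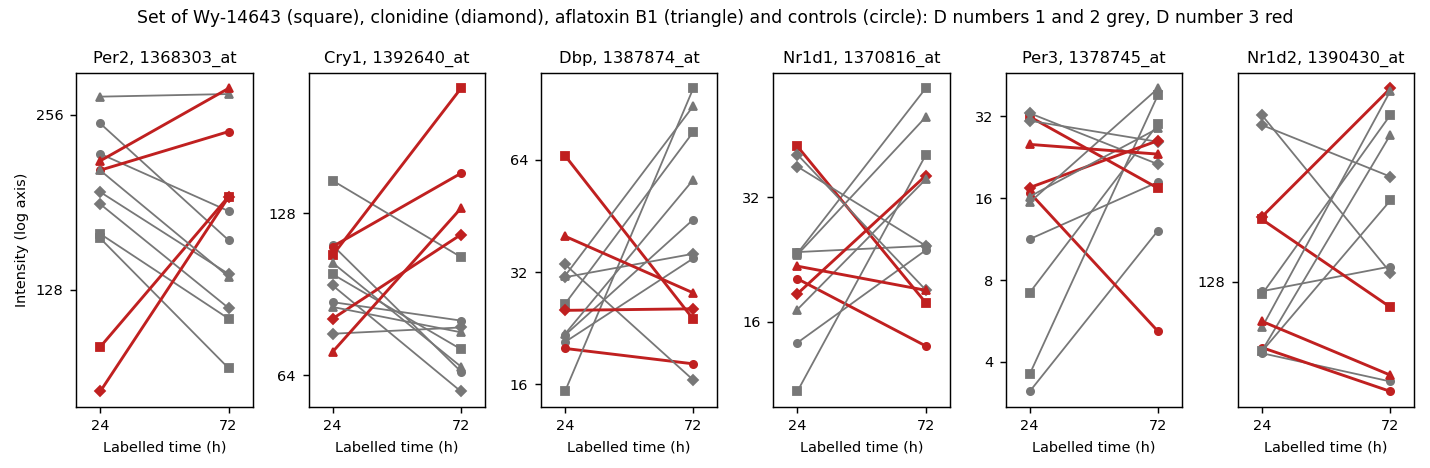
Intensity (log scale, values under the floor drawn at the floor) of 6 clock genes in the Wy-14643 set, with a line from the 24 h to the 72 h array of each group and D number, D number 3 in red. The 4 red lines of Cry1 and of Per2 all rise, while 7 of the 8 other lines of each fall.

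Levels of the members spanned a wide range, and values below are deposited array intensities, which are not compared between probe sets. Over the 24 groups, Per3 (1378745_at) covered the widest ratio of the 17 probe sets, 8.85-fold between the lowest group, the methapyrilene control at 24 h (geometric mean 3.40), and the highest, aflatoxin B1 at 72 h (30.1). Nr1d1 covered 4.22-fold, from piperonyl butoxide at 72 h (8.25) to Wy-14643 at 72 h (34.8). Dbp covered 3.52-fold, from NNK at 72 h (16.1) to Wy-14643 at 72 h (56.6). Per1 covered 3.10-fold, from nifedipine at 24 h (43.3) to aflatoxin B1 at 72 h (134), Per2 2.40-fold, from Wy-14643 at 72 h (126) to nifedipine at 24 h (302), and Cry1 2.17-fold, from clonidine at 72 h (81.9) to methapyrilene at 24 h (178). The ranges of Clock (1390199_at, 1.45-fold) and Cry2 (1372548_at, 1.42-fold) were the narrowest. Beside these, the SD between arrays of 1 group was 0.77 on the log2 scale for Per3, 0.54 for Nr1d1, 0.51 for Dbp, 0.25 for Per1, 0.31 for Per2 and 0.31 for Cry1, so that neighbouring groups in the order of Per3, Nr1d1 or Dbp mostly lay within the spread of their arrays. The 3 probe sets that did not pass the filter reached at most 60.4 on any array (Per2, 1378560_at), 13.0 (Per3, 1388239_at) and 26.7 (Clock, 1369168_a_at), with medians of 7.46, 6.59 and 9.58.

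**Figure D2:**
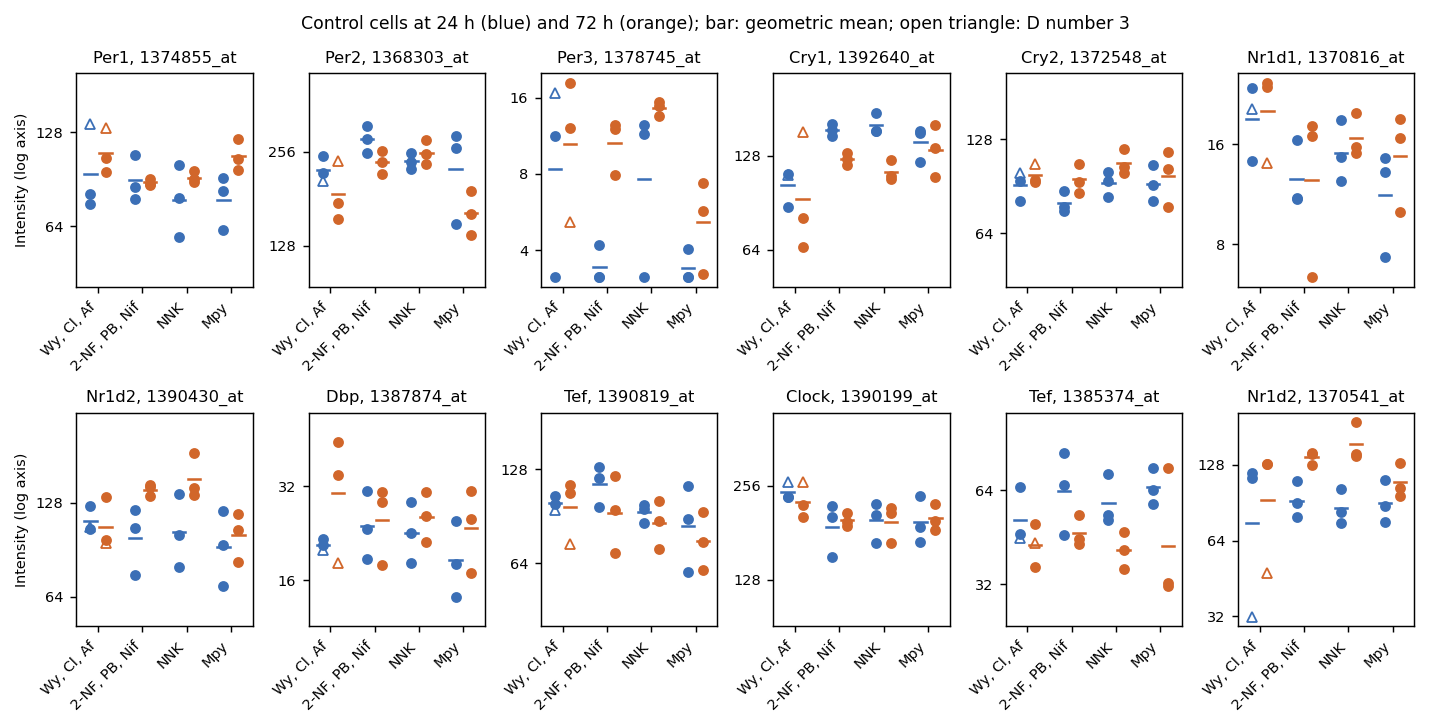
Intensity (log scale, values under the floor drawn at the floor) of clock probe sets on the 24 control arrays, by control set, 24 h in blue and 72 h in orange, with D number 3 arrays as open triangles. Per3 and Tef (1385374_at) are the members whose mean change over the 4 sets passed the test, Per3 upwards and Tef downwards.

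In control cells the question was which clock genes moved between 24 h and 72 h in culture. Averaged over the 4 control groups, Per3 rose by 0.87 ± 0.31 (log2 scale, SE, n = 12 arrays a time) and the Tef probe set 1385374_at fell by 0.46 ± 0.15. They were 2 of the 17 member probe sets, while 15.9% of all 18048 probe sets tested passed in this comparison. The median change was 0.16 over the members and 0.02 over all probe sets, and 7 of 17 members had an unadjusted p under 0.05 against 5268 of 18048. With 2 of 17 called, the members lay near the background. With the D number as a replicate block 4 of 17 passed, beside 23.7% of all probe sets, as Nr1d2 (1370541_at, adjusted p = 0.0061 by limma) and Per1 (0.0463) joined Per3 (0.0302) and Tef (0.0123). Same-numbered arrays deviated together in the Wy-14643 and methapyrilene control sets and not in the other 2. Those 2, the 2-nitrofluorene and NNK sets, carry the same D numbers, 7, 8 and 9, at both times. Whether they share cells is not stated. The 12 arrays a time are therefore not 12 separate D numbers, and agreement between these 2 sets is not shown to be separate replication. P-values are from limma's moderated test over all 24 groups, Benjamini-Hochberg adjusted over all tested probe sets, with an adjusted p under 0.05 as the threshold.

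Per3, a Period gene with a largely accessory role in the loop, was close to the floor of 3.117 at 24 h in 2 control sets. The 2-nitrofluorene set read 4.19, 1.86 and 3.08 at 24 h and 12.0, 7.89 and 12.5 at 72 h. The methapyrilene set read 3.06, 1.97 and 4.03, then 5.73, 3.23 and 7.37. The NNK set read 2.83, 11.5 and 12.5, then 13.6, 15.4 and 14.8, and the Wy-14643 set 11.3, 2.79 and 16.8, then 18.3, 12.2 and 5.18. The times did not overlap in the 2-nitrofluorene and NNK sets and overlapped in the other 2, where the third array of the Wy-14643 set, of D number 3, ran against the rest. Since 6 of the 12 arrays at 24 h were raised to the floor, the fitted rise depends on the floor and may understate the change. With the lower floor it was 1.01. The adjusted p for Per3 was 0.0452 with all arrays and 0.0038 without the D number 3 arrays (1.12 ± 0.29). In 24 fits that each left out 1 control array, Per3 passed in 8, with an adjusted p of 0.0193 to 0.123. It kept its call without replicate 1 or 3 at 24 h or replicate 3 at 72 h of the Wy-14643 set, replicate 1 at 24 h or 2 at 72 h of the 2-nitrofluorene set, replicate 2 or 3 at 24 h of the NNK set and replicate 2 at 72 h of the methapyrilene set, and lost it without any 1 of the other 16 arrays. It was lost too under quantile normalization (adjusted p = 0.0653), with no filter (0.0695) and with only the control groups in the fit (0.054).

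Tef encodes a PAR bZIP activator that acts through D-boxes. Its probe set 1385374_at read 46.0, 84.0 and 66.3 at 24 h in the 2-nitrofluorene set and 42.9, 44.6 and 53.4 at 72 h. In the NNK set it read 51.4, 72.1 and 53.4, then 41.1, 35.8 and 46.9, in the methapyrilene set 57.9, 64.2 and 75.4, then 31.6, 32.2 and 75.1, and in the Wy-14643 set 46.4, 65.3 and 45.1, then 36.3, 49.8 and 43.2. The times did not overlap in the NNK set and overlapped in the other 3. The adjusted p was 0.0246 with all arrays and 0.0163 without the D number 3 arrays. It passed in 18 of 24 fits that left out 1 array, with an adjusted p of 0.0036 to 0.0653. The arrays without which it did not pass were replicate 2 of the Wy-14643, 2-nitrofluorene and NNK sets at 24 h (0.0551, 0.0592 and 0.0543), replicate 1 of the Wy-14643 set at 72 h (0.0543) and replicates 1 and 2 of the methapyrilene set at 72 h (0.0561 and 0.0653). The other Tef probe sets, 1369919_at (0.23) and 1390819_at (−0.16), did not pass and differed in direction from each other, so the probe sets of Tef disagree.

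Cry1 and Nr1d2 readings lay apart between the times in single control sets, without passing the test when all arrays were used. Cry1, a repressor of CLOCK and BMAL1, read 148, 162 and 154 at 24 h in the 2-nitrofluorene set and 131, 120 and 125 at 72 h. In the NNK set it read 175, 153 and 153, then 108, 124 and 110, so in both sets every 72 h array lay below every 24 h array. In the methapyrilene set it read 122, 153 and 152, then 110, 135 and 161, and in the Wy-14643 set 87.6, 112 and 111, then 80.9, 65.1 and 152. The mean change of Cry1 over the 4 sets was −0.26 ± 0.12 (adjusted p = 0.151 by limma), and −0.33 ± 0.09 without the D number 3 arrays (adjusted p = 0.0029).

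Nr1d2, a repressor of Bmal1, had 3 probe sets. The probe set 1370541_at read 75.3, 103 and 83.0 in the NNK control at 24 h and 142, 139 and 189 at 72 h. In the 2-nitrofluorene set it read 79.0, 110 and 90.4, then 143, 127 and 142, and the times did not overlap in either set. In the methapyrilene set it read 111, 76.0 and 87.5, then 95.8, 130 and 104, and in the Wy-14643 set 118, 114 and 31.9, then 129, 129 and 47.6, with the D number 3 array lowest at both times. Its mean change was 0.49 ± 0.19 (adjusted p = 0.0618 by limma), and 0.46 ± 0.11 without the D number 3 arrays (adjusted p = 0.0012). Within the NNK set alone the change was 0.84 (adjusted p = 0.205, and 0.0065, beside 8.85% of all probe sets, without the D number 3 arrays, which lie in another set and enter through the shared estimate of spread). The probe set 1390430_at changed by a mean of 0.28 ± 0.12 (adjusted p = 0.087, and 0.0358 without D number 3). The third, 1370540_at, changed by 0.22 ± 0.33 (adjusted p = 0.714, and 0.559 without D number 3) and differed between the sets. It read 11.8, 17.7 and 16.8, then 39.1, 26.9 and 30.0 in the NNK set, 14.3, 24.6 and 20.3, then 19.9, 16.2 and 15.5 in the 2-nitrofluorene set, 19.1, 12.8 and 11.2, then 17.1, 18.9 and 14.8 in the methapyrilene set and 22.5, 16.1 and 2.57, then 18.7, 11.3 and 0.50 in the Wy-14643 set. Its 72 h arrays lay above the 24 h arrays in the NNK set, while same-numbered pairs were lower at 72 h in 2 of 3 cases in the 2-nitrofluorene set and in 2 of 3 in the Wy-14643 set, where the third pair was under the floor.

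Without the D number 3 arrays, 7 of 17 member probe sets passed the mean over the 4 control groups, beside 25.7% of all probe sets. Besides Per3, Tef (1385374_at), Cry1 and Nr1d2 (1370541_at and 1390430_at), these were Per1 (0.26 ± 0.10, adjusted p = 0.0497 by limma) and Per2 (−0.28 ± 0.11, adjusted p = 0.0455). Per1 and Per2, Period genes of the repressing arm, had opposite signs. Per1 read 80.9, 75.6 and 136 at 24 h in the Wy-14643 set and 106, 95.4 and 132 at 72 h, with the D number 3 array highest at both times. The times did not overlap for Per1 in the methapyrilene set alone, at 62.5, 82.7 and 91.0, then 96.8, 122 and 105. Dbp (0.28), Nr1d1 (0.15), Nr1d2 (1370540_at, 0.22), both Cry2 probe sets (0.24 and 0.16) and all 3 kept Clock probe sets (−0.002 to 0.11) did not pass with or without those arrays.

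Set by set, 0 of 17 members passed in any of the 4 control sets by limma, where 0.0% (Wy-14643 set), 2.71% (2-nitrofluorene set), 2.85% (NNK set) and 0.51% (methapyrilene set) of all probe sets passed. The members with an unadjusted p under 0.05 were 0, 2, 3 and 2 of 17, beside 415, 3239, 3374 and 2359 of all 18048 probe sets. With the replicate block 1 passed in the NNK set, Nr1d2 (1370541_at, adjusted p = 0.0406), beside 9.5% of all probe sets. Members whose 72 h arrays lay all above or all below the 24 h arrays were 0, 4, 7 and 1 of 17, beside 3.44%, 31.8%, 35.1% and 20.7% of all probe sets. In the Wy-14643 set without D number 3 the count was 10 of 17, beside 40.8%.

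Markers of other cells moved with culture time in the same controls. Both kept bile duct markers, Krt7 and Epcam, rose in the mean over the 4 groups (mean change 2.04), and their summed intensity was 241 to 521 at 24 h and 352 to 974 at 72 h. All 4 kept endothelial markers fell (−1.37), with sums of 24.9 to 141 at 24 h and 13.3 to 152 at 72 h. Of the other lists 1 of 9 macrophage, 1 of 7 stellate and 2 of 7 hepatocyte markers fell and 0 rose. The part of such changes in the clock genes' values was not tested. In these bulk samples, fewer cells of a type and less RNA per cell cannot be told apart.

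Over the 16 comparisons of a compound with its own control, 1 of 272 member tests passed (0.368%), against 1.6% of 288768 tests over all probe sets. Unadjusted p-values under 0.05 came to 32 of 272 for the members (11.8%) and to 9.44% of all tests. The 1 call was Per1 after 24 h of nifedipine. In the other 15 comparisons limma called 0 of 17, where the share of all probe sets called ran from 0.0% to 7.31%. That share was 0.0443% and 7.31% for Wy-14643 at 24 h and 72 h, 0.0166% and 0.0332% for clonidine, 3.33% and 4.91% for aflatoxin B1, 1.13% and 0.809% for 2-nitrofluorene, 0.0887% and 0.0% for piperonyl butoxide, 0.92% and 3.32% for NNK and 0.0% at both times for methapyrilene. Nifedipine gave 0.46% at 24 h and 3.18% at 72 h. The fit behind these counts did not pair arrays of the same D number. Such arrays deviated together in all compound comparisons except those of aflatoxin B1. With the D number as a replicate block 3 of 272 member tests passed. They were Per1 after 24 h of nifedipine, Cry2 (1369446_at) after 72 h of Wy-14643 and Tef (1369919_at) after 72 h of aflatoxin B1.

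**Figure D3:**
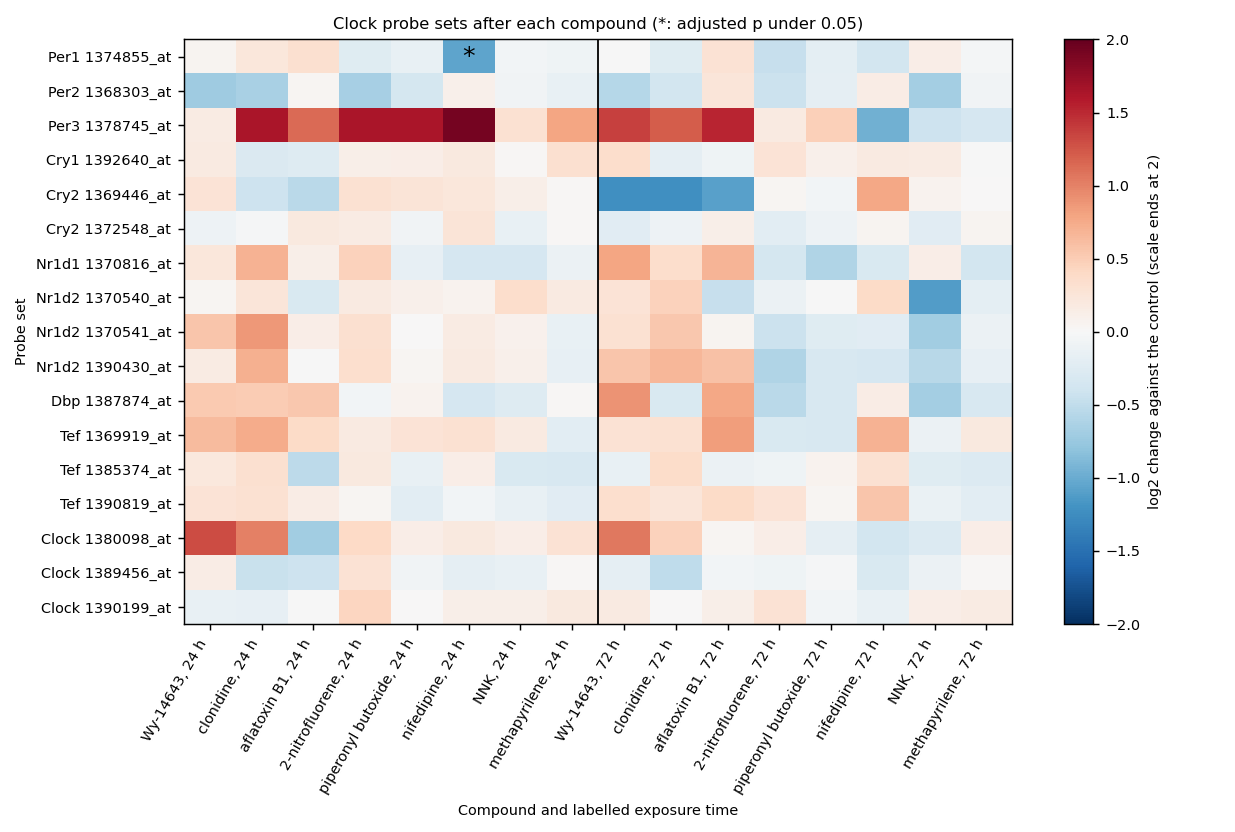
Log2 change of the 17 tested clock probe sets (rows) after each compound and time against its own control (columns), red higher and blue lower, with a star at an adjusted p under 0.05. The only star is on Per1 after 24 h of nifedipine (−1.05).

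Per1 is the Period gene whose transcription responds to glucocorticoid and cAMP signals. After 24 h of nifedipine Per1 (1374855_at) read 40.1, 50.3 and 40.3, against 108, 78.4 and 85.7 in the control. All treated arrays lay below all control arrays, beside 10.4% of all probe sets, and were the 3 lowest of the 72. Per1 fell by 1.05 ± 0.21 on the log2 scale (95% interval −1.47 to −0.63, adjusted p = 0.00614 by limma, n = 3 a group), and the control was 2.08-fold higher. In this comparison 0.188% of all probe sets fell. Of the cell type markers limma called 0 of 7 hepatocyte, 9 macrophage, 7 stellate, 4 endothelial and 2 bile duct markers. Those higher than in the control were 0 hepatocyte, 1 macrophage, 0 stellate, 1 endothelial and 2 bile duct markers. Their mean changes by list were −0.20, −0.19, −0.68, −0.33 and 0.22 in that order. Hepatocyte sums were 31994 to 40070 against 35685 to 49331 in the control. The part of the markers' cells in the Per1 result was not tested. Per1 kept its call in 5 of 6 fits that left out 1 array, and lost it without control replicate 1 (−0.92, adjusted p = 0.110). It lost it too with only the comparison's groups in the fit (adjusted p = 0.0691).

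After 72 h of nifedipine Per1 read 86.8, 67.4 and 54.7 against 87.6, 86.9 and 90.9, again all below the control, beside 20.2% of all probe sets, and the difference of −0.37 did not pass. The change in effect from 24 h to 72 h was 0.68 ± 0.30 (adjusted p = 0.574 by limma), so a difference between the times was not shown. 2-Nitrofluorene and piperonyl butoxide, set against the same control arrays, gave Per1 readings of 90.2, 82.2 and 58.4 and of 91.3, 73.3 and 78.8 at 24 h, which overlapped the control. At 72 h Per1 read 64.8, 69.6 and 58.2 after 2-nitrofluorene, all below the control, and the change was −0.47 ± 0.21 (adjusted p = 0.518). Clonidine gave 107, 99.3 and 124 at 24 h and aflatoxin B1 129, 98.4 and 129, against 80.9, 75.6 and 136. The arrays of high actin ratio held Per1 levels of 109 to 153 and the other 62 arrays 40.1 to 138.

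**Figure D4:**
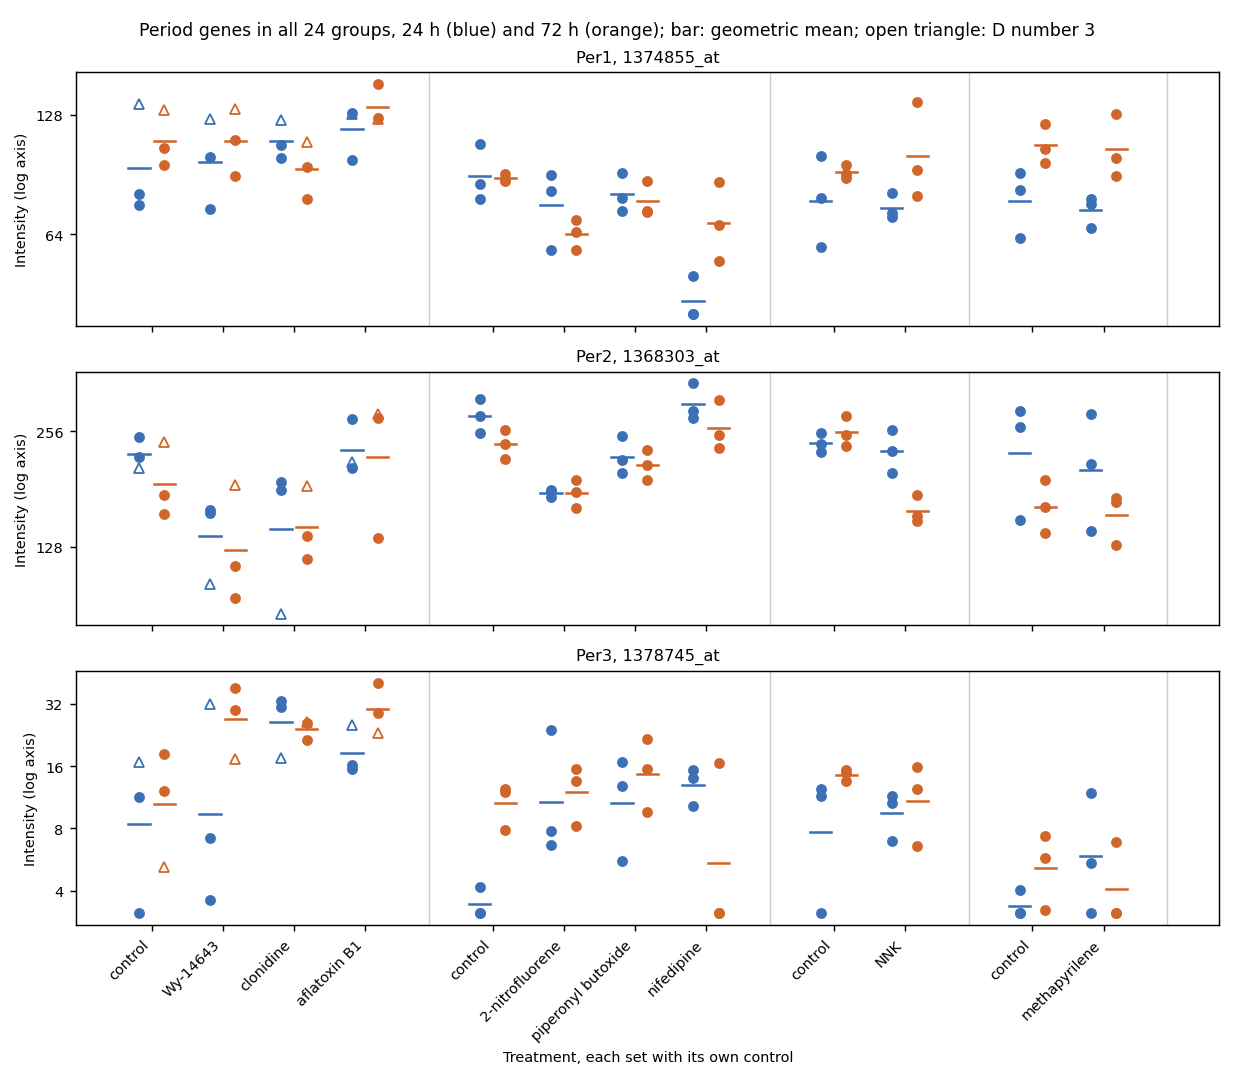
Intensity of Per1, Per2 and Per3 (log scale, values under the floor drawn at the floor) on all 72 arrays, by group, with D number 3 arrays marked. The 3 nifedipine arrays at 24 h are the lowest for Per1, at 40.1 to 50.3.

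Per2, a core repressor of the loop, lay below every control array in 6 of the 16 comparisons and above it in none, and passed in none. After 24 h of 2-nitrofluorene Per2 (1368303_at) read 179, 173 and 180 against 281, 254 and 310, a change of −0.66 ± 0.25 (adjusted p = 0.226 by limma). At 72 h it read 162, 178 and 190 against 237, 217 and 258. Piperonyl butoxide at 24 h gave 199, 215 and 248 against the same control as 2-nitrofluorene. The 24 h results share their control arrays and are given side by side only.

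Per2 after 72 h of NNK read 154, 150 and 175 against 251, 234 and 280 in NNK's own control. The change was −0.68 ± 0.25 (adjusted p = 0.132 by limma), and it passed without the D number 3 arrays, which are in neither group (adjusted p = 0.0282, beside 7.37% of all probe sets). After 24 h of Wy-14643 Per2 read 160, 157 and 102 against 247, 219 and 206 (−0.71 ± 0.25, adjusted p = 0.267), and after 24 h of clonidine 188, 180 and 85.6 against the same control (−0.65 ± 0.25, adjusted p = 0.524). The lowest reading of each was the D number 3 array, and without those the changes were −0.56 and −0.34. After 72 h of Wy-14643 Per2 read 114, 93.9 and 185 against 156, 175 and 239. Nifedipine ran the other way at 24 h, with 341, 278 and 289 overlapping its control.

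The share of all probe sets with every treated array below every control array was 12.5% for 2-nitrofluorene at 24 h and 13.6% at 72 h, 7.23% for piperonyl butoxide at 24 h, 15.1% for NNK at 72 h, 5.48% for Wy-14643 at 24 h and 4.36% for clonidine at 24 h.

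Per3 had the largest fitted changes of the members after 24 h. It read 10.3, 15.4 and 14.0 after nifedipine, 6.68, 23.8 and 7.75 after 2-nitrofluorene and 5.59, 16.7 and 12.9 after piperonyl butoxide, against 4.19, 1.86 and 3.08 in the control that all 3 share. Each group lay above that control, 2 of whose 3 arrays were under the floor. The fitted changes were 1.92 ± 0.62, 1.64 ± 0.62 and 1.63 ± 0.62, with adjusted p of 0.179, 0.225 and 0.917 by limma. At 72 h Per3 read 2.19, 2.39 and 16.5 after nifedipine against 12.0, 7.89 and 12.5, and the difference between the effects at the 2 times was −2.88 ± 0.87 (adjusted p = 0.258). The nifedipine arrays at 72 h overlapped their control, with 2 of the 3 below it. Clonidine at 24 h gave 30.8, 32.8 and 17.5 against 11.3, 2.79 and 16.8 (1.64 ± 0.62, adjusted p = 0.515, and 2.42 ± 0.68, adjusted p = 0.658, without the D number 3 arrays). Aflatoxin B1 at 72 h gave 40.5, 28.9 and 23.2 against 18.3, 12.2 and 5.18 (1.52 ± 0.62, adjusted p = 0.173, and 1.20 ± 0.68, adjusted p = 0.251, without them). None of these passed. The share of all probe sets with every treated array above every control array was 8.04% for nifedipine, 10.6% for 2-nitrofluorene, 6.24% for piperonyl butoxide and 3.77% for clonidine at 24 h, and 6.6% for aflatoxin B1 at 72 h.

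The cryptochromes are the main repressors of CLOCK and BMAL1, and no probe set of either passed. Cry1 lay above all control arrays after nifedipine at 24 h (184, 177 and 171 against 148, 162 and 154) and at 72 h (132, 164 and 132 against 131, 120 and 125), after methapyrilene at 24 h (171, 174 and 189 against 122, 153 and 152) and after 2-nitrofluorene at 72 h (176, 140 and 138 against 131, 120 and 125). The share of all probe sets above their control was 8.04% and 13.6% for nifedipine at 24 h and 72 h, 6.16% for methapyrilene at 24 h and 8.74% for 2-nitrofluorene at 72 h. Cry2 (1372548_at) stayed between 68.4 and 124 on all 72 arrays. The other Cry2 probe set, 1369446_at, read 13.5, 7.83 and 1.17 after 72 h of Wy-14643 against 24.4, 25.6 and 6.77. Its change was −1.23 ± 0.59 (adjusted p = 0.220 by limma), −1.86 without control replicate 3 and −0.65 without treated replicate 3, both of D number 3. With the D number as a replicate block, which pairs these arrays, it passed (adjusted p = 0.0443), and without the D number 3 arrays it did not (−1.28, adjusted p = 0.0819). This is a probe set whose level followed the actin ratio, and the gene's other probe set (86.5, 68.4 and 99.7 against 93.6, 94.6 and 107) did not pass. Without the D number 3 arrays 1369446_at also passed after 72 h of aflatoxin B1 (−1.46, adjusted p = 0.036), where its remaining treated arrays read 18.5 and 4.51, the second of high actin ratio.

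Nr1d1, Nr1d2 and Dbp were positively correlated over the groups, while other members that CLOCK and BMAL1 switch on differed in sign. Across the 24 group means of log2 values Pearson's r was 0.73 for Nr1d1 with Nr1d2 (1390430_at) and 0.73 for Nr1d1 with Dbp. It was 0.64 for Nr1d2 with Dbp and 0.78 for Nr1d2 with Per3. Nr1d1 had an r of 0.72 with Per1, −0.54 with Per2 and −0.76 with Cry1. Genes outside the clock came closer to Nr1d1, with Acin1 at 0.91. The groups share sets, control arrays and culture times, so these are descriptions. After 72 h of NNK, 6 of the 17 member probe sets lay below all control arrays and 0 above, beside 28.4% of all probe sets above or below. The 6 were the 3 probe sets of Nr1d2, Per2, Dbp and 1 of Clock.

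Nr1d2 after 72 h of NNK read 104, 76.4 and 110 against 142, 139 and 189 (1370541_at), 127, 81.6 and 107 against 135, 142 and 184 (1390430_at), and 11.3, 13.3 and 20.7 against 39.1, 26.9 and 30.0 (1370540_at). The changes were −0.70 ± 0.37, −0.56 ± 0.23 and −1.11, with adjusted p of 0.371, 0.201 and 0.442 by limma. The probe set 1370541_at passed without the D number 3 arrays (adjusted p = 0.0261), and 1370540_at did not (0.082). Without the arrays of high actin ratio, which are in neither group, both passed (0.012 and 0.0128). With the actin ratio as a covariate 1370540_at passed (0.0182) and 1370541_at did not (0.0714). The level of 1370540_at followed that ratio, and shares of all probe sets under these actin settings are not given here. The NNK control at 72 h was also the highest of the 24 groups for 1370541_at and 1370540_at. Dbp read 18.4, 13.4 and 16.8 against 25.7, 21.2 and 30.8 and did not pass. A difference between the mean effects of the genotoxic and the non-genotoxic carcinogens passed for no member by limma. At 24 h and at 72 h 0 of 17 were called, beside 0.997% and 2.22% of all probe sets. An unadjusted p under 0.05 was found for 0 of 17 at both times, beside 1380 and 2179 of all 18048 probe sets.

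Nr1d1, Nr1d2 and Dbp were read higher in some groups of the Wy-14643 set, without passing when all arrays were used. Nr1d2 (1390430_at) read 203, 197 and 153 after 24 h of clonidine against 105, 125 and 107 (0.71 ± 0.23, adjusted p = 0.372 by limma, and 0.80 ± 0.25 without D number 3, adjusted p = 1). Nr1d1 read 40.6, 38.0 and 18.7 against 14.2, 23.6 and 20.3. The first 2 clonidine arrays were the high ones, and the third was of D number 3. Of the 3 Nr1d2 probe sets only 1390430_at lay above every control array after 24 h of clonidine. Dbp did so too, beside 3.77% of all probe sets. For clonidine at 24 h, 6 of 17 members lay above or below all control arrays, beside 8.12% of all probe sets, and 6 of 17 had an unadjusted p under 0.05 against 1211 of 18048.

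After 72 h of Wy-14643 Nr1d1 read 40.5, 58.7 and 17.8 against 23.8, 24.4 and 14.0, and Nr1d2 (1390430_at) 160, 203 and 119 against 97.3, 134 and 94.7 (0.55 ± 0.23, adjusted p = 0.147, and 0.66 ± 0.25 without D number 3, adjusted p = 0.0861). Dbp, whose protein drives D-box genes of liver metabolism, read 99.5, 76.0 and 23.9 against 34.8, 44.3 and 18.2. Of all Dbp readings the first was the highest, the second was exceeded by it and by 1 array of aflatoxin B1 at 72 h, and the D number 3 array lay below 2 control arrays. The change of Dbp was 0.90 ± 0.41 (adjusted p = 0.194), and 1.15 ± 0.39 without the D number 3 arrays (adjusted p = 0.0516). With 1 array left out it ran from 0.49 without treated replicate 1 (adjusted p = 0.505) to 1.52 without treated replicate 3, of D number 3, when it passed (0.0173), and was 0.53 without control replicate 3 (0.491). At 24 h the D number 3 array of Wy-14643 was the high one, with Dbp at 15.3, 26.3 and 65.7 against 20.8, 21.7 and 20.0. At 72 h of Wy-14643 0 of 17 members lay above or below all control arrays, beside 13.8% of all probe sets, and without D number 3 the count was 11 of 17, beside 40.8%.

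After 72 h of aflatoxin B1 Dbp read 89.2, 56.6 and 28.1 against the same 34.8, 44.3 and 18.2, and Nr1d2 (1390430_at) 192, 217 and 99.0 against 97.3, 134 and 94.7. The Nr1d2 change was 0.58 ± 0.23 (adjusted p = 0.166 by limma) and passed without the D number 3 arrays (0.84 ± 0.25, adjusted p = 0.0198, beside 12.8% of all probe sets). The highest reading, 217, was replicate 2, an array of high actin ratio, and without it the change was 0.36 (adjusted p = 0.870), while without treated replicate 3 it was 0.93 and passed (0.00953). The other Nr1d2 probe sets read 171, 109 and 47.9 against 129, 129 and 47.6 (1370541_at, 0.06 ± 0.37, and 0.08 without D number 3) and 25.2, 2.39 and 3.26 against 18.7, 11.3 and 0.50 (1370540_at, −0.46 ± 0.67, and −0.71 without D number 3), and neither passed. Tef (1369919_at) read 33.8, 24.9 and 21.3 against 21.6, 11.9 and 12.5 (0.83 ± 0.31, adjusted p = 0.135, and 0.86 ± 0.34 without D number 3, adjusted p = 0.0883). This Tef change passed with the D number as a replicate block (adjusted p = 0.0278) and with the actin ratio as a covariate (0.0197). The shares of all probe sets called under those 2 settings are not given here. After 72 h of nifedipine the same Tef probe set read 40.1, 35.4 and 42.3 against 28.2, 24.0 and 21.1, all above the control beside 13.6% of all probe sets (0.69 ± 0.31, adjusted p = 0.235), and these were the 3 highest readings of that probe set.

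Clock, the activating partner of BMAL1, was measured by 3 tested probe sets that disagreed. The brightest, 1390199_at, had group means between 179 and 259. After 24 h of 2-nitrofluorene all 3 Clock probe sets lay above every control array: 227, 279 and 261 against 152, 220 and 204 for 1390199_at (0.43 ± 0.15, adjusted p = 0.199 by limma), 65.2, 65.9 and 68.9 against 52.0, 59.1 and 53.6 for 1389456_at, and 68.3, 82.0 and 92.0 against 53.9, 65.0 and 64.4 for 1380098_at. None passed. In this comparison 5 of 17 members did not overlap the control, beside 23.1% of all probe sets. The probe set 1380098_at read 3.29, 75.1 and 18.4 after 24 h of aflatoxin B1 against 90.7, 67.3 and 2.22. It passed without the D number 3 arrays (−2.31, adjusted p = 0.0139, beside 4.0% of all probe sets), when the low reading came from replicate 1, an array of high actin ratio. Its sign turned without that array (0.48) and without control replicate 1 (0.19).

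After methapyrilene 0 of 17 members passed at either time, and NNK at 24 h and piperonyl butoxide at 72 h left 0 of 17 members outside the range of their controls, beside 21.3% and 9.49% of all probe sets. A difference between a compound's effects at 72 h and 24 h passed for 0 of 17 members by limma with each compound. An unadjusted p under 0.05 was found in 4 of 136 member tests, 2 for nifedipine, 1 for 2-nitrofluorene and 1 for NNK. Of all 18048 probe sets 1335, 700 and 874 were under it for these compounds, and 184 to 1156 for the other 5. The share of all probe sets called was 0.116% for nifedipine, 0.0277% for NNK, 0.00554% for 2-nitrofluorene and 0.0% for the other 5 compounds.

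The rest of the clock was followed with a list of 20 other genes, of which 16 were on the array by symbol, with 26 kept probe sets for 15 of them. Over the 4 control groups, 2 of these 26 rose and 2 fell between 24 h and 72 h, beside 15.9% of all probe sets. Bhlhe41 (DEC2), a repressor that competes for E-boxes, rose by 2.61 ± 0.39 (adjusted p = 8.8e-06 by limma, and 2.99 ± 0.35, adjusted p = 9.5e-09, without D number 3). It read 4.85, 2.99 and 0.37 at 24 h and 48.6, 62.1 and 35.6 at 72 h in the 2-nitrofluorene set, and 3.94, 0.27 and 0.59, then 32.6, 57.1 and 46.6 in the NNK set. Within those sets it passed too (3.72 and 3.71), the first lost without replicate 2 at 72 h (adjusted p = 0.0712) and the second without replicate 2 at 24 h (0.0595) or at 72 h (0.0608). At 24 h, 6 of the 12 control readings were under the floor, so the rise may be understated. In the Wy-14643 set the D number 3 arrays read 25.3 at 24 h and 3.63 at 72 h.

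Noct (nocturnin), a rhythmic phosphatase of liver, rose by 1.48 ± 0.30 over the 4 control groups (adjusted p = 0.0004 by limma, and 1.62 ± 0.32, adjusted p = 0.00018, without D number 3). It read 131, 64.6 and 58.5, then 286, 492 and 245 in the 2-nitrofluorene set, and was higher at 72 h in 24 of 24 pairs outside the Wy-14643 set. In that set it was higher at 72 h in 4 of 8 pairs of D numbers 1 and 2 and in 1 of 4 of D number 3, and the control read 122, 59.5 and 120, then 196, 91.1 and 57.5. Within the 2-nitrofluorene set it passed (2.04, adjusted p = 0.0455) and lost the call without any 1 of the 6 arrays. Bmal1, the partner of CLOCK and the target of NR1D1 and NR1D2, fell by 0.42 ± 0.15 (adjusted p = 0.0497, and −0.53 ± 0.10, adjusted p = 0.00015, without D number 3), from 110, 95.7 and 103 to 76.8, 76.6 and 68.3 in the NNK set. That call held in 4 of 24 fits with 1 array left out and was lost with the lower floor (0.0505), no filter (0.0756) or no intensity trend (0.0517). It was kept under quantile normalization (0.0125), with the replicate block (0.0307), with the actin ratio as a covariate (0.00623), with only the control groups in the fit (0.0497) and when the 10 arrays of high actin ratio were left out (3.1e-05). The casein kinase probe set Csnk1d (1370528_at) fell by 0.43 ± 0.13 (adjusted p = 0.0197, and −0.58 ± 0.13, adjusted p = 0.00078, without D number 3), and this call was lost without replicate 3 of the methapyrilene set at 24 h (0.0509) or replicate 1 of the Wy-14643 set at 72 h (0.0661).

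**Figure D5:**
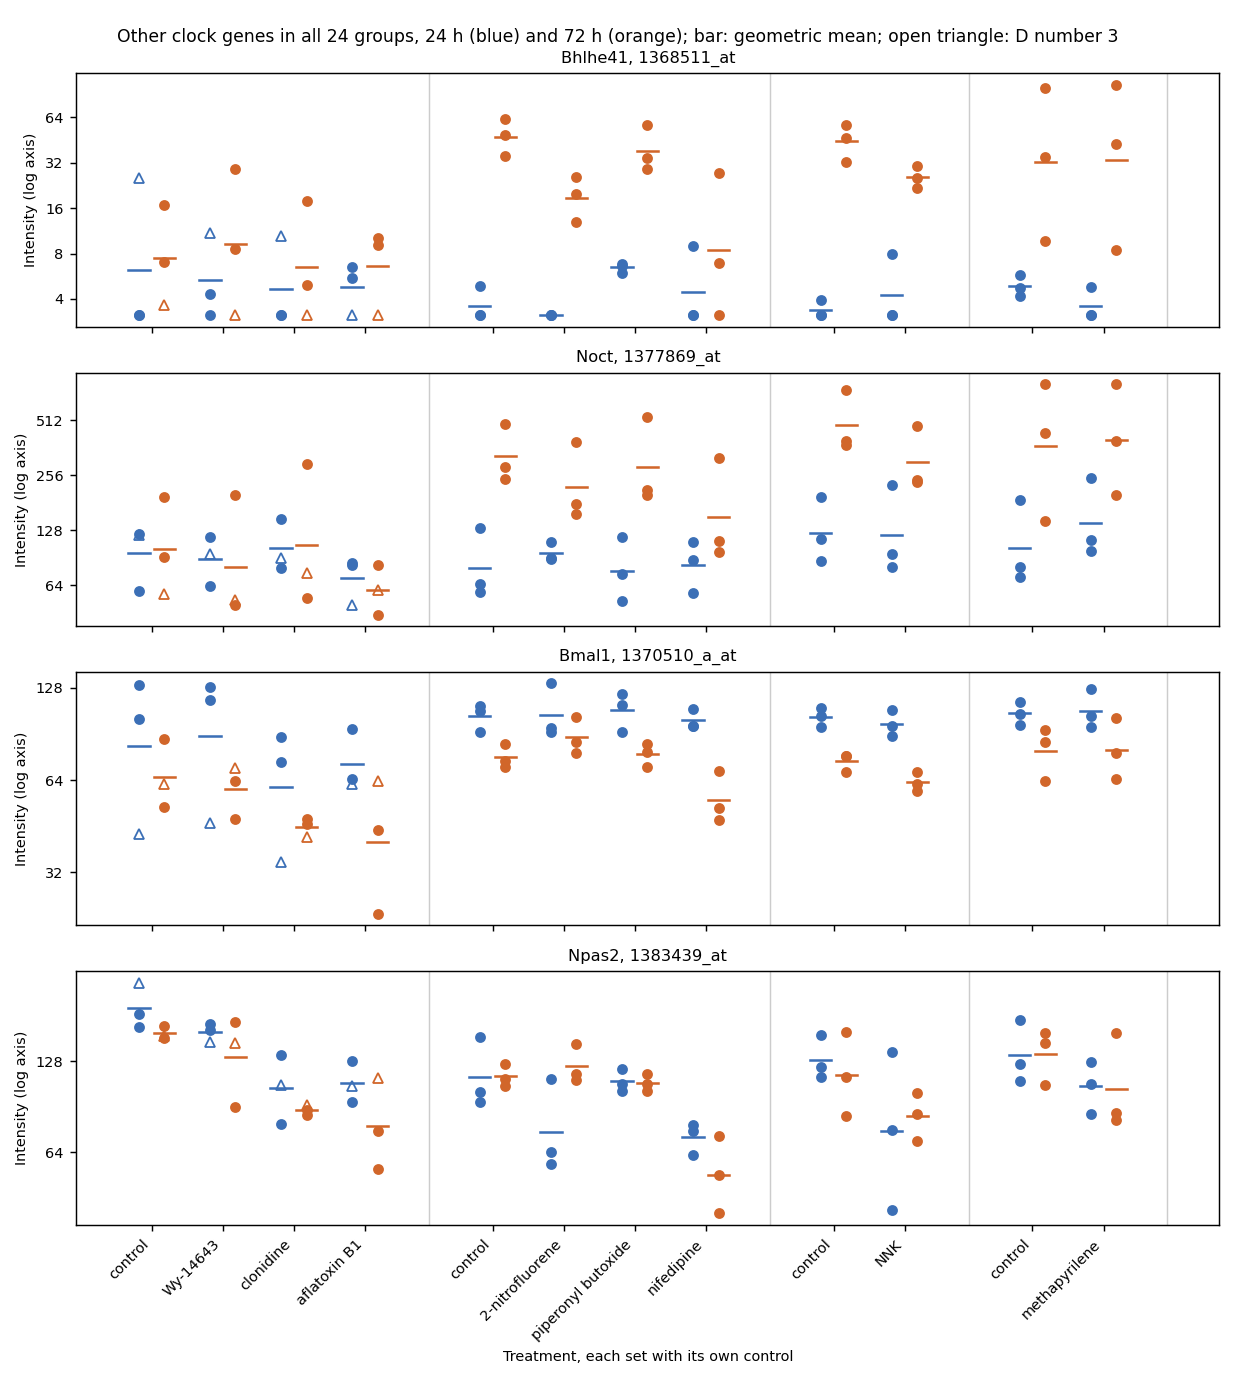
Intensity of Bhlhe41, Noct, Bmal1 and Npas2 (log scale, values under the floor drawn at the floor) on all 72 arrays, by group. In the 2-nitrofluorene and NNK controls Bhlhe41 is at 0.27 to 4.85 at 24 h and 32.6 to 62.1 at 72 h, and Npas2 is lowest in nifedipine at 72 h.

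Npas2 and Csnk1d were the genes of that list called after a compound. Npas2, a paralogue of CLOCK that also pairs with BMAL1, was called at 72 h of aflatoxin B1 and of nifedipine. It read 75.3, 56.2 and 112 after aflatoxin B1 against 153, 167 and 155 (−1.02 ± 0.29, adjusted p = 0.0258 by limma, and −1.29 ± 0.36, adjusted p = 0.0138, without D number 3), and 53.6, 72.5 and 40.3 after nifedipine against 106, 125 and 112 (−1.08 ± 0.29, adjusted p = 0.0247). Neither group overlapped its control, and the 2 controls are separate arrays. For nifedipine at 72 h 20.2% of all probe sets lay below every control array. Npas2 also lay below every array of the Wy-14643 set's controls after clonidine at 24 h and 72 h and aflatoxin B1 at 24 h, without passing. For clonidine at 24 h 4.36% of all probe sets did so. The shares for clonidine at 72 h and for aflatoxin B1 at both times are not given here. Those readings are therefore not set against a background. That control at 24 h was the highest of the 24 groups for Npas2 (geometric mean 192). At 24 h Npas2 read 75.3, 62.7 and 78.9 after nifedipine against 153, 93.5 and 101, and did not pass. The shares of all probe sets called were 4.91% for aflatoxin B1 and 3.18% for nifedipine. The aflatoxin B1 call was lost without control replicate 1 or 2 (adjusted p = 0.0598 and 0.114) or treated replicate 2 (0.389), an array of high actin ratio. The nifedipine call was lost without control replicate 1, 2 or 3 (0.0581, 0.129 and 0.0623) or treated replicate 1 or 3 (0.101 and 0.146).

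Csnk1d (1373332_at), whose kinase marks PER proteins, read 268, 236 and 285 after 24 h of nifedipine against 418, 352 and 380 (−0.54 ± 0.13, adjusted p = 0.0327 by limma), beside the fall of Per1 in the same arrays. It read 361, 317 and 382 after 72 h of Wy-14643 against 496, 503 and 408 (−0.41 ± 0.13, adjusted p = 0.0425, and −0.56 ± 0.13, adjusted p = 0.00285, without D number 3). The first call was lost without control replicate 1 or 3 (0.264 and 0.105) or treated replicate 1 or 2 (0.0969 and 0.348). The second was lost without control replicate 1 or 2 (0.149 and 0.182) or treated replicate 2 (0.284). Other probe sets of Csnk1d did not pass in either comparison. The probe set 1373332_at also lay below all control arrays, without passing, after 24 h of 2-nitrofluorene and of piperonyl butoxide. These share nifedipine's control arrays, and 12.5% and 7.23% of all probe sets lay below. It did so too after 24 h of Wy-14643 (beside 5.48%) and of methapyrilene and after 72 h of nifedipine (beside 20.2%). The share for methapyrilene is not given here.

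The genes whose pattern over the 24 group means of log2 values was most like each member were found among 10177 genes by Pearson's r. Cry1 was closest to Tsn (0.93) and Mtfr1l (0.91), and Nr1d1 to Acin1 (0.91) and Akap17a (0.90). Per1 was closest to Polr2a (0.86), Per2 to Kng2l1 (0.82), Per3 to Rsf1 (0.81), Tef to Cdk2ap2 (0.83), Clock to Exosc8 (0.81), Cry2 to Hnrnpr (0.81) and Dbp to C10h17orf58 (0.77). For Nr1d2 another member, Per3 (0.78), came second behind Zfyve26 (0.79). The groups share control arrays and sets, and these values are descriptions without a test.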

How the data were processed

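RNA of 72 hepatocyte samples was measured on Affymetrix rat arrays. Per the submitters' processing notes the authors made the values with MAS5, and the deposited table holds linear intensity values for 31099 probe sets. No source used here names the MAS5 version or parameters, and 0 columns were left unused.

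Values under 3.117, the 20th percentile, were set to it as a floor before log2 was taken. After removal of 57 control probe sets, 18048 probe sets (58.0%) whose mean reached the median of all values, 19.74, in at least 1 group remained. No further scaling was applied. The test was limma's (version 3.58.1, R 4.3.3), fitted to all 24 group means (48 residual degrees of freedom, intensity trend), Benjamini-Hochberg adjusted within each comparison, and the code was tested on simulated data. A fold near the floor may be understated. Precision is set by 3 arrays a group.

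Symbols came from the platform annotation (20826 probe sets with 1 symbol, 436 with several, 9780 with none), and promoter sequences from RefSeq (GRCr8). Listed genes without a matching symbol were not analysed here. The text names every member, other clock genes where called, and up to 3 genes of most similar pattern. The members and lists were chosen with earlier results of these data known.

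The protocol speaks of 3 independent biological experiments per compound. Arrays with the same D number deviated together (every r over 0.1) in all compound comparisons except those of aflatoxin B1, where 1 of 3 pairs at each time was under that limit, and in the Wy-14643 and methapyrilene control sets. The correlations were under that limit in the 2-nitrofluorene and NNK control sets. Alternatives were quantile normalization, a lower floor, no filter, no trend, the D number as a block, the actin ratio as a covariate, leaving out arrays, and fits on the compared groups alone.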

Additional observations from a re-analysis of the deposited data

How the results depend on the processing

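Over the 16 compound comparisons the number of member calls was 1 as reported, 1 under quantile normalization, the lower floor, no filter or no trend, 3 with only the compared groups in the fit, 4 with the actin ratio as a covariate, 6 without the D number 3 arrays and 8 when the 10 arrays of high actin ratio were left out. With the D number as a replicate block it was 3: Wy-14643 at 72 h and aflatoxin B1 at 72 h went from 0 to 1 call each (Cry2 and Tef), and Per1 after nifedipine kept its call. In the controls the block moved the NNK set from 0 to 1 and the 4 groups together from 2 to 4. Of all probe sets 9.5% and 23.7% passed there, against 2.85% and 15.9% without the block. The share of all probe sets called also rose without the D number 3 arrays, as given below. Shares under the remaining settings are not given here, so those counts are not read as a result about the members. For aflatoxin B1, 2 of 3 same-numbered pairs deviated together at each time, and the third (r of −0.26 at 24 h and −0.29 at 72 h) held an aflatoxin B1 array of high actin ratio. In the NNK and 2-nitrofluorene controls no pair did.

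The covariate gave 1 call for Wy-14643, aflatoxin B1 and NNK at 72 h, 2 in the NNK control and 4 in the 4 controls together. With the high-ratio arrays left out the counts were 3 for Wy-14643 at 72 h, 1 for 2-nitrofluorene at 24 h, 3 for NNK at 72 h, 1 and 3 in the 2-nitrofluorene and NNK controls and 7 in the 4 controls. Without D number 3 they were 1 for aflatoxin B1 at 24 h, 2 at 72 h, 2 for NNK at 72 h, 2 in the NNK control and 7 in the 4 controls. The shares of all probe sets called were then 4.0%, 12.8%, 7.37%, 8.85% and 25.7% in that order. With all arrays they were 3.33%, 4.91%, 3.32%, 2.85% and 15.9%. With only the compared groups they were 1 for 2-nitrofluorene at 24 h and at 72 h, 0 for nifedipine at 24 h, 1 for NNK at 72 h, 3 in the NNK control and 1 in the 4 controls. Quantile normalization or no filter gave 1 in the 4 controls. Leaving out 1 array gave 0 to 4 calls in the 4 controls, 0 to 1 for aflatoxin B1 at 72 h, 0 to 1 for nifedipine at 24 h and 0 to 2 for Wy-14643 at 72 h. The change of Clock (1380098_at) after 24 h of aflatoxin B1, −0.69, ran from −2.24 to 0.48 with 1 array left out, and turned to 0.19 without control replicate 1 and to 0.48 without treated replicate 1. The cause was not tested.

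Apart from the fits that left out 1 array, calls of the other clock genes moved from 1 to between 0 and 2 for Wy-14643 at 72 h. For aflatoxin B1 they moved from 1 to between 0 and 5 at 72 h and from 0 to 1 at 24 h (without D number 3). For nifedipine they moved from 1 to 0 at 24 h (compared groups only) and from 1 to 2 at 72 h. In the controls they moved from 2 to 1 in the 2-nitrofluorene set, from 1 to 2 or 3 in the NNK set and from 0 to 1 or 2 in the methapyrilene set. With 1 array left out they were 0 to 3 for Wy-14643 and aflatoxin B1 at 72 h. For nifedipine they were then 0 to 1 at 24 h and 0 to 2 at 72 h. They were 0 to 1 for NNK at 24 h and in the 2-nitrofluorene and NNK controls, and 0 to 2 in the methapyrilene control. Most of these counts stand without a share of all probe sets and are not read as a result about these genes. With the replicate block the calls of these other genes were 2 for Wy-14643 at 72 h, 2 for nifedipine at 72 h and 2 in the methapyrilene control. Each group had 3 arrays, and 11 readings of Per3 and 23 of Bhlhe41 among 72 were at the floor. The SD between arrays of 1 group was 0.77 for Per3 and 0.98 for Bhlhe41 on the log2 scale. Fitted Per3 changes larger than this SD did not pass after any compound, so differences well above the spread of the arrays can be missed.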
